A study of Homo sapiens with 24 samples.

Results

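Aminoacyl-tRNA synthetases are the enzymes that join each amino acid to its tRNA before the tRNA enters the ribosome. Human cells make one set for the cytosol and, from mostly separate nuclear genes, a second set that is imported into mitochondria. Several cytosolic enzymes sit together in a multi-synthetase complex held by scaffold proteins, and many cytosolic synthetase genes are textbook targets of ATF4, the transcription factor of the amino acid response, which is translated when the initiation factor eIF2 is phosphorylated. WARS1, the cytosolic tryptophanyl-tRNA synthetase, is in addition induced by interferon-gamma.

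The expression of 35 genes of this family was followed in 4 RNA-seq experiments with OE33 cells, a human cell line from an adenocarcinoma of the lower esophagus. The members were all rows whose Ensembl identifier maps to a listed symbol, 35 of 61860 identifiers, and they comprise 18 cytosolic enzymes, 15 mitochondrial enzymes and the scaffold proteins AIMP1 and AIMP2. GARS1 and KARS1 are counted with the cytosolic enzymes, although each also makes the mitochondrial enzyme, and the list does not hold the enzymes of every amino acid. Each experiment had 3 treated and 3 control libraries, 24 in all. In the first, OE33 xenografts were taken from male BALB/c-nu nude mice, 4 weeks old on purchase, fed with high fat (the HFD group) or a normal diet (the ND group) for 8 weeks before injection and through 3 weeks of tumor growth. Nude mice lack mature T cells, and the mice of the HFD group were chosen by body weight. In the second, cultured OE33 cells were transfected for 48 h with a plasmid for HA-tagged TRIM15 (HA-TRIM15), a ubiquitin ligase, or with the empty vector (EV). In the third and the fourth, the cultures received for 72 h a plasmid that encodes an shRNA to the transcription factor YY2 (shYY2) or to FOXRED1, a mitochondrial protein needed to assemble respiratory complex I (shFOXRED1), each beside shControl libraries of its own. The study lists more than one hairpin per target, and which of them was sequenced is not given in the sources used here. The experiments ask what an obese host, more TRIM15, or less YY2 or FOXRED1 changes in one and the same tumor cell line.

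Total counts ranged from 14299807 to 45994561 per library. TRIM15 had 14, 12 and 24 counts in the HFD libraries and 1, 0 and 0 in the ND libraries, and 111, 130 and 181 counts after HA-TRIM15 against 0 in each EV library. YY2 had 11, 12 and 11 counts after shYY2 and 43, 40 and 46 in its shControl, and FOXRED1 had 183, 207 and 129 counts after shFOXRED1 and 322, 259 and 254 in its shControl. The summed level of 7 columnar epithelial markers lay between 10872 and 16666 CPM in all libraries, while leukocyte markers summed to 4 to 34 counts and endothelial markers to 1 to 20. CPM stands for read counts scaled to a common normalised library size. The sums of epithelial and fibroblast markers are the exception, since they were scaled by library totals alone. All 37 mitochondrially encoded genes were listed at 0, so the tRNAs that the mitochondrial enzymes charge were not measured here. In bulk RNA, fewer cells of a type and less RNA per cell cannot be told apart. Nothing states that the 3 libraries of a cultured group came from separate cultures, so the p-values measure the spread between these libraries.

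The promoters of the cytosolic enzymes are shown first, because the results for HA-TRIM15 are read by whether an enzyme is a known ATF4 target. The core of the C/EBP-ATF response element, the sequence that ATF4 binds together with C/EBP proteins, was searched as TGATGNAA and, on the other strand, as TTNCATCA in the window from 250 bases before to 50 bases after each RefSeq transcription start (GRCh38.p14). The sites of 8 members are printed below on the strand of the gene with 11 bases to each side, and the capitals mark the match.
AARS1: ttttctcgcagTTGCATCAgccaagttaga
CARS1: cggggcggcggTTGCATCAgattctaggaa
GARS1: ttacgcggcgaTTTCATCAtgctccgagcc
IARS1: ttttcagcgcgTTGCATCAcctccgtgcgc
MARS1: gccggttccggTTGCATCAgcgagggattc
NARS1: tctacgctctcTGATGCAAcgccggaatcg
TARS1: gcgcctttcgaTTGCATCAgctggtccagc
YARS2: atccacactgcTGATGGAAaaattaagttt
AARS1 lies at chr16:70289675-70289704, minus strand, CARS1 at chr11:3057407-3057436, minus strand, GARS1 at chr7:30594834-30594863, plus strand, and IARS1 at chr9:92293692-92293721, minus strand. The MARS1 site is at chr12:57488053-57488082, plus strand, that of NARS1 at chr18:57621804-57621833, minus strand, that of TARS1 at chr5:33440956-33440985, plus strand, and that of YARS2 at chr12:32756076-32756105, minus strand. The matches of CARS1, MARS1 and TARS1 begin within 4 bases of the start site, those of IARS1, NARS1 and GARS1 within 33 bases, and those of AARS1 and YARS2 at 187 and 197 bases upstream. Of the 32 members with a promoter window, 25% held a match, compared to 4.46% of all genes with a window and 3.6% of protein-coding genes. The share was 7 of 10 ATF4-type cytosolic enzymes, 0 of 6 other cytosolic enzymes and 1 of 14 mitochondrial enzymes. The ATF4-type enzymes were listed as known targets, so their share is a description and not independent evidence, and no binding was measured here. AARS2, LARS1 and YARS1 were not searched. HARS1 and HARS2, the cytosolic and mitochondrial histidyl-tRNA synthetases, are read in opposite directions from start sites 85 bases apart on chromosome 5, and their windows share 184 bases.

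In the 4 control groups the cytosolic enzymes were, gene for gene, mostly the more abundant ones. Levels between genes were compared as CPM per kb of exon length, averaged over the 4 control groups. GARS1, the glycyl-tRNA synthetase, was highest at 61.4 CPM per kb, ahead of IARS2, the mitochondrial isoleucyl-tRNA synthetase, at 59.7. EPRS1, which joins both glutamate and proline, followed at 52.8, then AARS1 (alanine) at 48.7 and IARS1 (cytosolic isoleucine) at 47.4. The ranges of the 4 group means of these genes overlapped, with 52.7 to 79.4 CPM per kb for GARS1 and 55.3 to 62.8 for IARS2, so their order is not fixed. After IARS2, the next mitochondrial enzyme was RARS2 (arginine) at 15.9 CPM per kb, in place 19 of 35. The lowest levels were those of CARS1 (cytosolic cysteine) at 1.47 and SARS2 (mitochondrial serine) at 0.565 CPM per kb. SARS2 shares 46.2% of its exon bases with AC011455.2 on the same strand and 10.8% with MRPS12 on the other, so its low value is uncertain. The exon length is the union over all annotated transcripts, which lowers the value of genes with long rare exons. IARS1 differed most in absolute level between control groups, from 29.1 CPM per kb in ND xenografts to 70.2 in the shControl of the FOXRED1 experiment, but these groups differ in material and experiment and were not compared by a test.

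**Figure D1:**
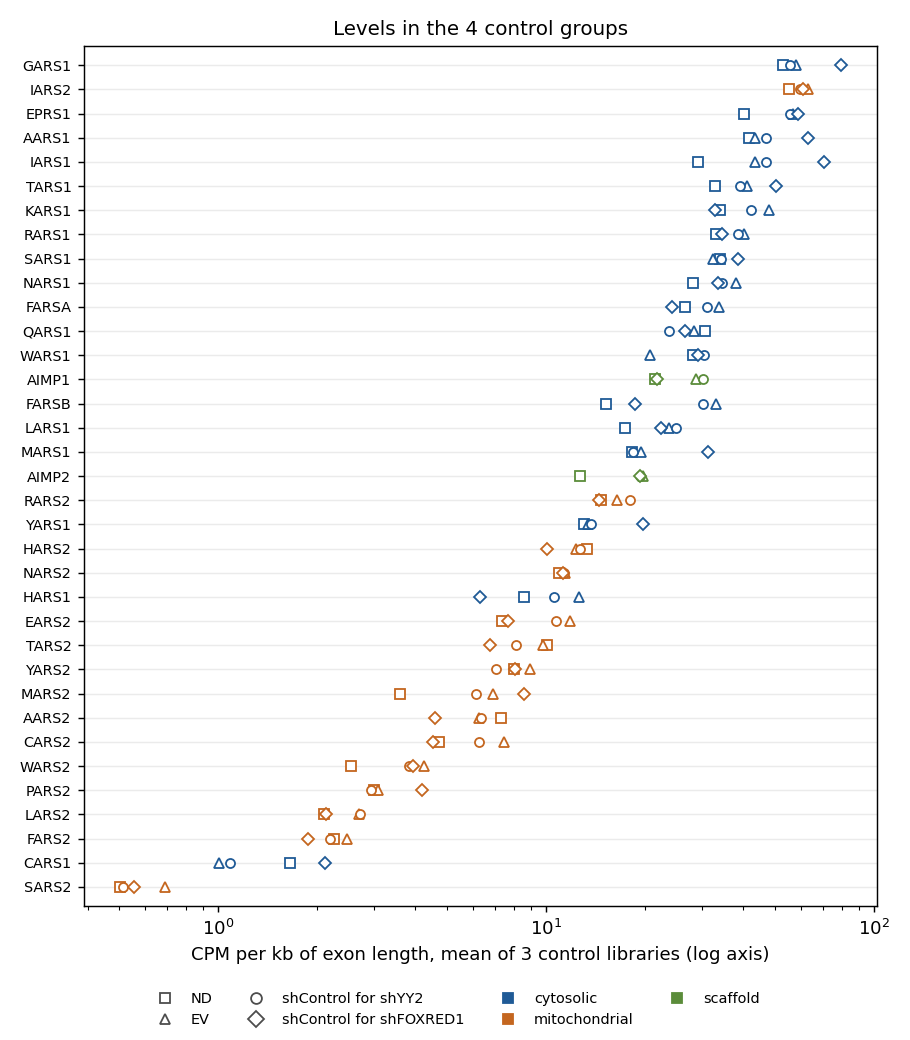
Level of each of the 35 members in the 4 control groups, as the mean CPM per kb of exon length over 3 libraries on a log axis; symbols stand for control groups and colours for the compartment. GARS1 and IARS2 stand at the top with 61.4 and 59.7 CPM per kb on average, and RARS2 is the next mitochondrial enzyme at 15.9.

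Replicates of a group were close. The median coefficient of variation over the members was between 2.25% and 4.98% in the 8 groups, and the most variable member was SARS2 in 5 groups, CARS1 in 2 and NARS2 in 1. Treated and control libraries were compared within each experiment by the quasi-likelihood test of edgeR, with p-values adjusted after Benjamini-Hochberg across the genes of the experiment, and a member with an adjusted p below 0.05 is called higher or lower. All 35 members passed the filter on low counts in each experiment. Across the 4 experiments, 2 members (PARS2 and SARS2, mitochondrial proline and serine) were called in none, 7 in 1, 17 in 2, 5 in 3 and 4 members (AARS1, GARS1, IARS1 and CARS2) in all 4. Of the 14519 genes tested in every experiment, 9.43% were called in none, 27% in 1, 33.2% in 2, 23.5% in 3 and 6.79% in all 4, compared to 5.71%, 20%, 48.6%, 14.3% and 11.4% of the members. The stability of a call is given over 12 alternatives, which change the scaling, the filter or the test, add the replicate block or leave out 1 library. A required change of at least 1.5-fold is not among the 12, and it removes every call of the HFD, HA-TRIM15 and shFOXRED1 experiments. After shYY2 it removes the calls of QARS1 and CARS1. Of the lower members it leaves 13 of 16 cytosolic enzymes, 5 of 12 mitochondrial enzymes and 1 of 2 scaffold proteins. Values per library are given in CPM, and values after ± are SE for log2 fold changes.

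**Figure D2:**
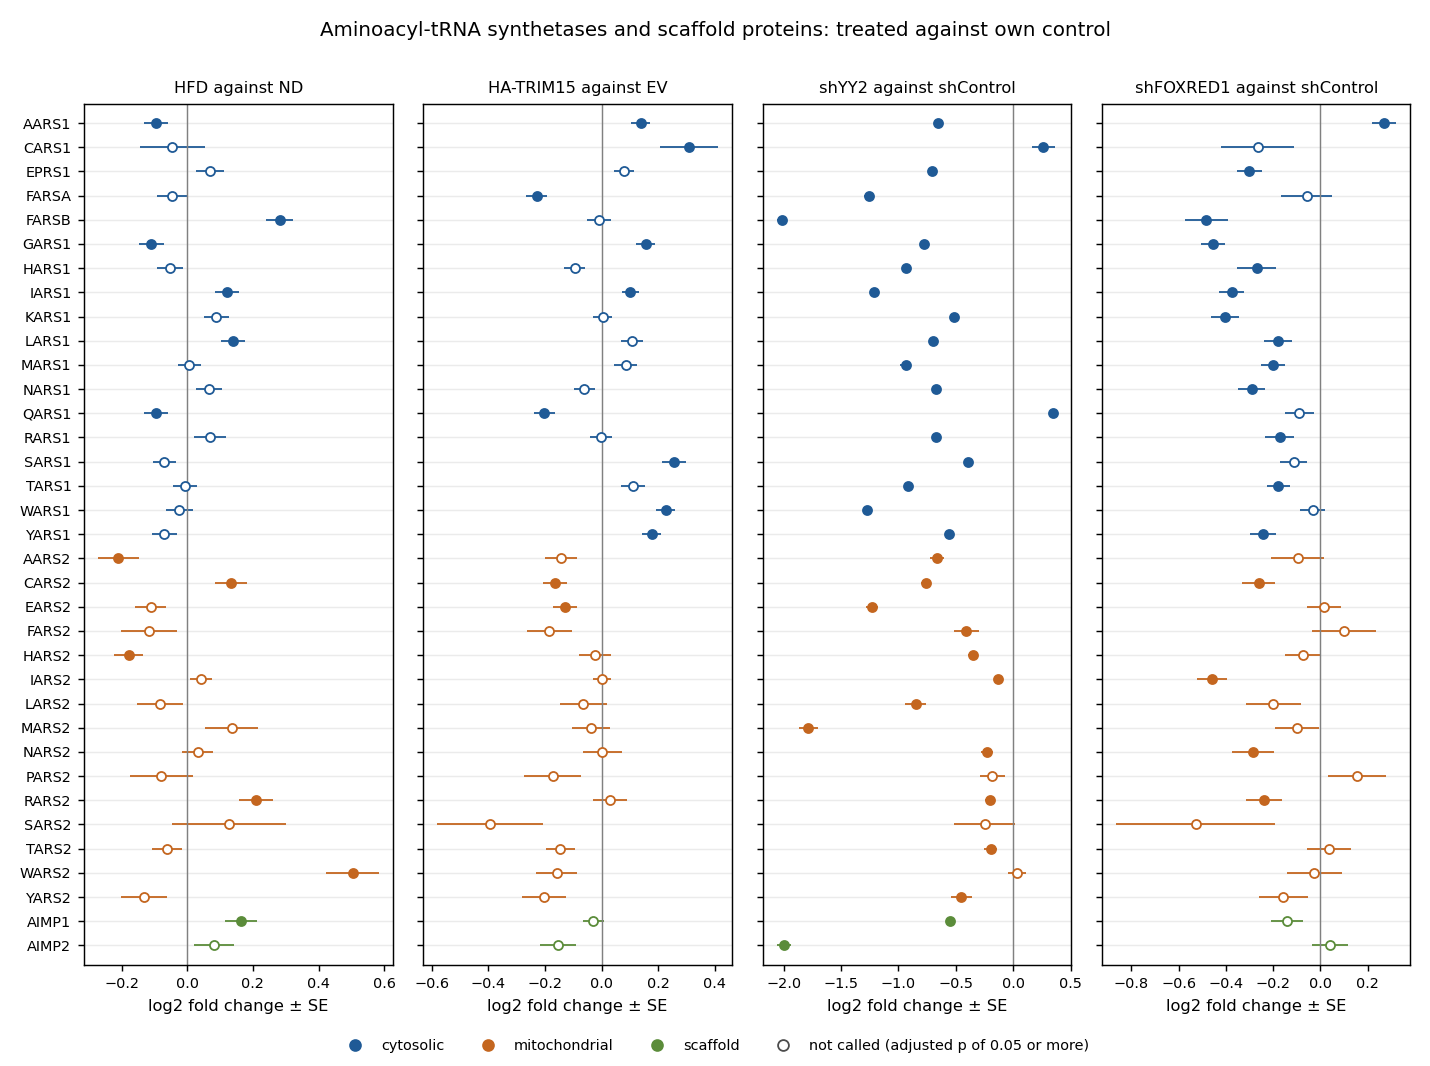
Log2 fold change ± SE of each member, treated against own control (3 against 3 libraries), with 1 panel per experiment, each on its own scale; filled points passed the test and colours mark the compartment. Of the 35 members, 12, 11, 32 and 17 were called in the HFD, HA-TRIM15, shYY2 and shFOXRED1 experiments, with the widest shifts after shYY2, down to -2.01 for FARSB.

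Knockdown of YY2 lowered nearly the whole family. Of the 18 cytosolic enzymes, 16 were called lower and 2 higher compared to shControl, and of the 15 mitochondrial enzymes 12 were lower. No mitochondrial enzyme was higher at an unadjusted p below 0.05 or by DESeq2. AIMP1 and AIMP2 were both lower. The median log2 fold change was -0.71 over the cytosolic and -0.35 over the mitochondrial enzymes, compared to -0.0081 over all genes tested. The change was broad in these cells, with 38.1% of all genes tested called lower and 36.8% higher. The decrease was at least 1.5-fold for 13 cytosolic and 5 mitochondrial enzymes, and in all 32 members called the 3 shYY2 libraries did not overlap the 3 shControl libraries, as in 97.1% of all called genes and 76.3% of all genes tested.

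The largest fall was that of FARSB, the beta subunit of cytosolic phenylalanyl-tRNA synthetase, which is made of alpha and beta chains. FARSB stood at 25.4, 24.1 and 26.1 CPM after shYY2 and at 99.2, 99.99 and 106 CPM in shControl, a log2 fold change of -2.01 ± 0.046 (SE, adjusted p = 4.63e-15), or 4.04-fold lower. FARSA, the alpha subunit, had 31.5, 30.4 and 32.7 CPM against 75.6, 76.5 and 74.1 CPM (-1.26 ± 0.043, adjusted p = 3.49e-13). Both chains of the enzyme were thus lower, in every library. WARS1 was measured at 79.9, 79.2 and 79.3 CPM after shYY2 and at 192, 196 and 189.6 CPM in shControl. The libraries of each group lay within a few CPM of each other, and WARS1 was 2.42-fold lower (log2 fold change -1.28 ± 0.03, adjusted p = 7.15e-15). IARS1 fell by the same order, from 349, 348 and 344 CPM to 149, 149 and 151 CPM (-1.21 ± 0.028, adjusted p = 5.38e-15). MARS1, the cytosolic methionyl-tRNA synthetase, which also charges the initiator tRNA, went from 131, 135 and 122 CPM to 66.5, 71.1 and 64.5 CPM (-0.94 ± 0.044, adjusted p = 1.78e-11), and shares 5.05% of its exon bases with DDIT3 on the other strand. HARS1 and TARS1, for histidine and threonine, were 1.91-fold and 1.88-fold lower. The remaining lower cytosolic enzymes, for alanine, arginine, asparagine, glutamate and proline, glycine, leucine, lysine, serine and tyrosine, had log2 fold changes between -0.77 (GARS1) and -0.39 (SARS1).

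QARS1 and CARS1 went the other way. QARS1, the glutaminyl-tRNA synthetase, had 145, 147 and 135 CPM after shYY2 and 112, 112 and 111 CPM in shControl, 1.27-fold higher (log2 fold change 0.35 ± 0.035, adjusted p = 2.05e-07). The values of CARS1, a gene of low level here, were 13, 13 and 13 CPM against 11.4, 12 and 9.28 CPM (0.26 ± 0.097, adjusted p = 0.0225). The CARS1 call was lost by DESeq2's Wald test and without the third shControl library, the lowest of the controls, while QARS1 was called under each of the 12 alternatives.

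Among the mitochondrial enzymes, MARS2, for methionine, fell most, although on few reads (87 counts in its lowest library, and 158 for LARS2). Its level was 5.29, 5.28 and 5.46 CPM after shYY2 and 18.6, 18.5 and 18.2 CPM in shControl, 3.44-fold lower (log2 fold change -1.78 ± 0.084, adjusted p = 1.84e-11). EARS2, the mitochondrial glutamyl-tRNA synthetase, which also loads glutamate onto the glutamine tRNA of mitochondria, had 26.5, 24.5 and 27.4 CPM against 63.8, 59.9 and 60.4 CPM (-1.23 ± 0.051, adjusted p = 3.81e-12). LARS2, for leucine, had 9.62, 11.6 and 9.57 CPM and 17.8, 20.1 and 17.5 CPM (-0.85 ± 0.091, adjusted p = 4.36e-07). The spread of LARS2 within a group was wider than that of MARS2, yet no knockdown library reached the lowest control. CARS2 and AARS2 were 1.7-fold and 1.58-fold lower, and the other 7 called enzymes had log2 fold changes between -0.45 (YARS2) and -0.13 (IARS2). IARS2, the most abundant mitochondrial enzyme, was lower by less, at 225, 227 and 227 CPM against 255, 246 and 244 CPM. PARS2, SARS2 and WARS2 did not pass the test, with log2 fold changes from -0.25 to 0.035.

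The scaffold proteins differed in size of effect. AIMP2, which links subunits inside the multi-synthetase complex, had 8.89, 8.76 and 9.09 CPM after shYY2 and 35.2, 35.4 and 36.1 CPM in shControl, 3.99-fold lower (log2 fold change -1.997 ± 0.063, adjusted p = 1.45e-13). AIMP1, which binds tRNA, was 1.46-fold lower (67.9, 71.2 and 67.1 CPM against 100.5, 97.8 and 103 CPM). Of the 9 genes of the complex (7 enzymes and both scaffolds), 8 were lower and QARS1 was higher, with a median of -0.70. AIMP2 shares 28.9% of its exon bases with EIF2AK1 on the other strand, and EIF2AK1, the heme-regulated eIF2 kinase, was 1.3-fold higher after shYY2 (295, 295 and 287 CPM against 219.8, 227 and 228 CPM), the opposite of AIMP2. Whether reads were counted by strand is not stated, so the AIMP2 level is uncertain to that extent.

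**Figure D3:**
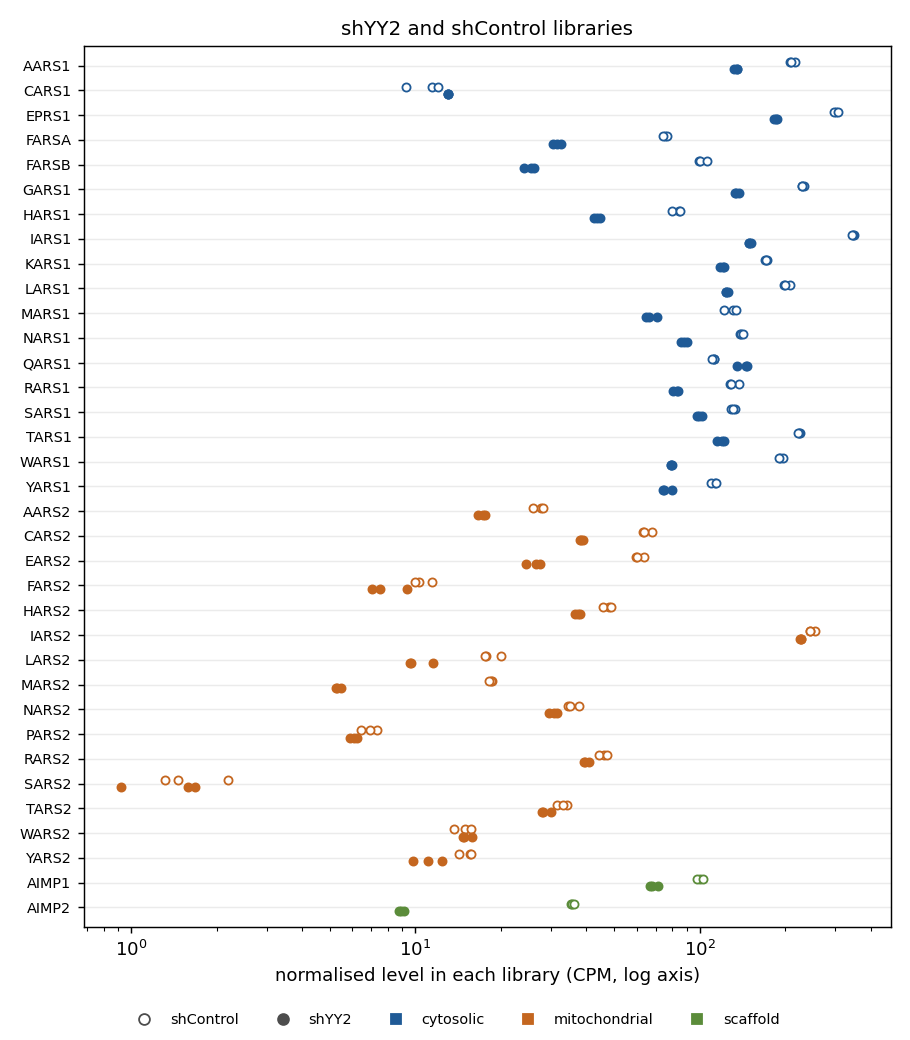
Normalised level of each member in the 3 shYY2 libraries (filled) and the 3 shControl libraries (open), in CPM on a log axis. Filled points lie left of open points for 31 of the 35 members without overlap (the 30 called lower and PARS2, which was not called), most widely for FARSB, AIMP2 and MARS2, and right of them for QARS1 and CARS1.

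Genes that act beside the synthetases were more often lower than higher in these libraries, with exceptions in each list. Of 12 genes for the delivery, editing and transfer of charged tRNAs in the cytosol, 10 were lower and 2 higher (median -0.75). EEF1E1, a further component of the multi-synthetase complex, had 6.69, 5.88 and 7.41 CPM after shYY2 and 13.4, 14.1 and 14.3 CPM in shControl (-1.06 ± 0.098, adjusted p = 7.47e-08), whereas EEF1A1, the elongation factor that carries charged tRNA to the ribosome, was 1.43-fold higher. Of 18 factors of mitochondrial translation, 13 were lower and 3 higher (median -0.42), and GFM1, the mitochondrial elongation factor G, fell from 128, 128 and 132 CPM to 52.8, 54.5 and 50.1 CPM. Among 30 genes of the amino acid response outside the synthetases, 20 were lower and 6 higher (median -0.59). PSAT1, an enzyme of serine synthesis, was 3.68-fold lower and SLC7A5, a transporter of large amino acids, 3.31-fold lower, while the transcript of ATF4 itself was 1.12-fold higher (adjusted p = 0.000131) and that of ASNS, asparagine synthetase, 1.26-fold higher. Of the 8 interferon-gamma-induced genes listed beside WARS1, 6 were higher and 1 lower, with GBP2, a guanylate-binding protein, at 208, 204 and 207 CPM against 13.6, 13.8 and 13.4 CPM. WARS1 thus fell in libraries where most of these genes rose. The summed level of 5 fibroblast markers was also higher after shYY2, 42.4 to 44.1 CPM compared to 10.4 to 11.1 CPM. It was nearly all COL1A1, while COL3A1, DCN, LUM and PDGFRB had at most 10 counts in any library. The part of COL1A1 in the results on the synthetases was not tested.

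The sums over the enzymes of each compartment were compared by library. The 18 cytosolic enzymes summed to 2909 ± 21.7 CPM in shControl and 1716 ± 5.46 CPM after shYY2 (SD, n = 3), and the 15 mitochondrial enzymes to 649.9 ± 15.4 and 501.9 ± 2.13 CPM. The cytosolic sum was 4.48 ± 0.073 times the mitochondrial sum in shControl and 3.42 ± 0.0075 times after shYY2, without overlap between the libraries. After HA-TRIM15 this ratio was 4.62 ± 0.07, above the 4.21 ± 0.036 of EV, again without overlap. The ratios of the xenografts, 4.12 ± 0.012 in HFD and 4.12 ± 0.074 in ND, overlapped, as did those of shFOXRED1 (5.79 ± 0.12) and its shControl (5.61 ± 0.091). In the latter experiment, whose same-numbered libraries were taken as paired, the ratio was nonetheless higher in each of the 3 pairs, with 5.67, 5.91 and 5.80 after shFOXRED1 and 5.55, 5.72 and 5.57 in shControl, and this was not tested. These sums weigh each enzyme by its read count, so that a few abundant, long transcripts such as IARS1 and EPRS1 carry much of them.

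**Figure D4:**
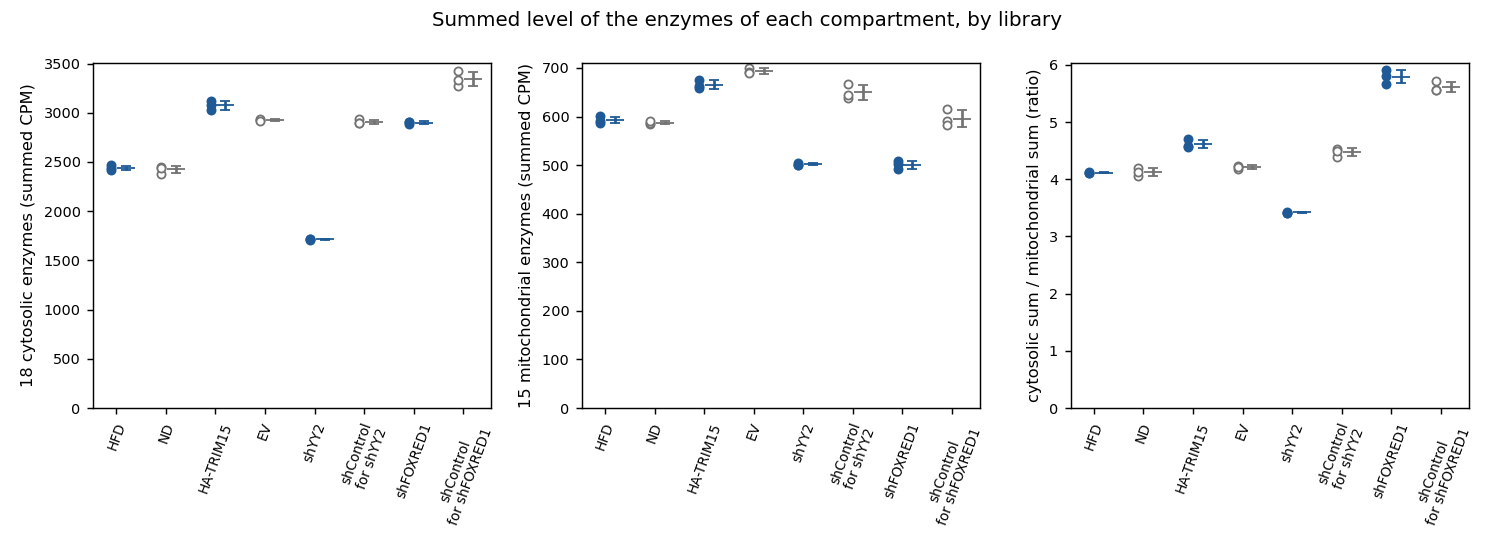
Summed CPM of the 18 cytosolic enzymes, summed CPM of the 15 mitochondrial enzymes and their ratio in each of the 24 libraries; points are libraries and bars show the mean ± SD of 3. Both sums are lowest or nearly lowest after shYY2 (1716 and 501.9 CPM), and the ratio is lowest there at 3.42.

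Knockdown of FOXRED1 gave a smaller decrease, which was more frequent among the cytosolic enzymes than among the mitochondrial ones by count. Compared to their shControl, 12 of 18 cytosolic enzymes were lower and 1 was higher, and 4 of 15 mitochondrial enzymes were lower. No mitochondrial enzyme was higher at an unadjusted p below 0.05 or by DESeq2. Neither scaffold protein passed the test, but with the replicate block, which the pairing of these libraries allows, AIMP1 was called lower (-0.14, adjusted p = 0.0479) and no other call of a member changed. The other values printed for this experiment, also with 1 library left out, are from the fit without the block. With the block the adjusted p of LARS1 was 0.000735 and that of RARS1 0.00319, compared to 0.0256 and 0.0338 without it. The block called 6793 of all genes tested, compared to 5752 without it. In this experiment 19.7% of all genes tested were called lower and 16.8% higher. The median log2 fold change was -0.22 over the cytosolic and -0.099 over the mitochondrial enzymes, compared to 0.012 over all genes tested, and no member changed by as much as 1.5-fold among those called. Whether the compartments differ was not tested.

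FARSB had again the largest decrease among the cytosolic enzymes called. It stood at 40.8, 40.8 and 53.5 CPM after shFOXRED1 and at 59.3, 65.7 and 63.3 CPM in shControl (log2 fold change -0.48 ± 0.092, adjusted p = 0.000517), with the third knockdown library well above the others and still below all controls. GARS1 went from 324, 329 and 335 CPM to 230.1, 240.2 and 252 CPM (-0.45 ± 0.051, adjusted p = 2.23e-06). KARS1, the lysyl-tRNA synthetase of both compartments, had 97.3, 104 and 102 CPM after shFOXRED1 and 126, 136 and 139 CPM in shControl (-0.40 ± 0.06, adjusted p = 4.42e-05). The genes that supply glycyl- and lysyl-tRNA synthetase to cytosol and mitochondria alike were therefore both among the 3 cytosolic members that fell most. IARS1 had 392, 390.4 and 419 CPM against 501, 508 and 550.1 CPM (-0.38 ± 0.051, adjusted p = 1.91e-05), and EPRS1 251, 256 and 273 CPM against 312, 313 and 336 CPM (-0.30 ± 0.053, adjusted p = 0.000245). In each of these 5 genes the groups did not overlap. The other 7 lower enzymes, NARS1, HARS1, YARS1, MARS1, TARS1, LARS1 and RARS1, had log2 fold changes between -0.29 and -0.17. The calls of HARS1, LARS1, RARS1 and TARS1 were each lost without at least 1 of the libraries. Those of LARS1, RARS1 and TARS1 were also lost by library totals alone. With 1 library left out, 9 to 12 cytosolic enzymes were called lower.

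AARS1 stood apart as the only member called higher after shFOXRED1. Its level was 357, 345 and 324 CPM in the knockdown and 291, 277 and 282 CPM in shControl, 1.21-fold higher (log2 fold change 0.27 ± 0.051, adjusted p = 0.000499), and the call was kept under each of the 12 alternatives. The mitochondrial IARS2 fell from 241, 245 and 275 CPM to 185, 173 and 196 CPM (-0.46 ± 0.062, adjusted p = 1.9e-05), and CARS2, for cysteine, from 48.9, 44.9 and 48.1 CPM to 38.8, 40.1 and 39.7 CPM (-0.26 ± 0.07, adjusted p = 0.00744). These were the 2 mitochondrial calls that none of the 12 alternatives removed. RARS2 had 29.8, 32 and 31.9 CPM against 38.2, 36.4 and 35.9 CPM (-0.24 ± 0.076, adjusted p = 0.0193), and NARS2, for asparagine, was lower with overlapping groups (-0.28, adjusted p = 0.0192). Without the first knockdown library, or without the first control, neither of them passed and 2 mitochondrial calls were left. WARS1 did not change measurably, at 184, 175 and 183 CPM against 179, 185 and 189 CPM (-0.032 ± 0.053, adjusted p = 0.672), while 6 of 7 interferon-gamma-induced genes tested were higher. The 11 mitochondrial and 4 further cytosolic enzymes that did not pass had log2 fold changes from -0.53 to 0.15 and from -0.27 to -0.057.

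Of the 30 amino acid response genes tested outside the synthetases, 16 were lower and 5 higher after shFOXRED1 (median -0.18). Their log2 fold changes ran from -1.201 to 1.199, so the largest rise was about as large as the largest fall. The genes valued next are all from the lower side. ASNS fell 2.06-fold, from 25.7, 24.6 and 27.2 CPM to 11.9, 13.5 and 12.1 CPM, and ALDH1L2, a mitochondrial folate enzyme, 2.3-fold, while the transcript of ATF4 was 1.14-fold lower (adjusted p = 0.00937). The 12 ATF4-type cytosolic enzymes had 8 lower and 1 higher, and the 6 other cytosolic enzymes 4 lower, with medians of -0.22 for both. Of 18 mitochondrial translation factors, 3 were lower and none higher. Fibroblast markers, again nearly all COL1A1, summed to 39.3 to 42.4 CPM after shFOXRED1 and 23.6 to 25.0 CPM in shControl, and their part in these results was not tested.

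All 16 enzymes lower after shFOXRED1 were lower after shYY2 too, which is 100% of the first list and 53.3% of the 30 members of the second. Over all genes tested in both experiments, 61.4% of those lower after shFOXRED1 were lower after shYY2. With 30 of the 35 members lower after shYY2, a high share of any list of members follows, and it cannot show a link. AARS1 was called in both with opposite signs, 0.27 after shFOXRED1 and -0.66 after shYY2. FOXRED1 itself had 313, 268 and 330 counts after shYY2 and 612, 544 and 647 in the shControl of that experiment. The study places FOXRED1 downstream of YY2, so the 2 knockdowns are not separate perturbations. The part of FOXRED1 in the shYY2 effect was not tested. The difference between the 2 knockdown effects was tested itself in a fit over the 12 libraries. The shYY2 effect was lower than the shFOXRED1 effect for 15 cytosolic and 7 mitochondrial enzymes and both scaffold proteins, and higher for 2 cytosolic and 1 mitochondrial enzyme, where 28% of all genes tested were lower and 26.4% higher. The largest differences were those of AIMP2 (-2.04 ± 0.098, adjusted p = 2.38e-13), MARS2 (-1.68 ± 0.12, adjusted p = 2.02e-10) and FARSB (-1.53 ± 0.11, adjusted p = 1.71e-10) on the log2 scale. The difference for WARS1 was also negative (-1.25 ± 0.058, adjusted p = 1.5e-13). QARS1, CARS1 and IARS2 were the members with the higher shYY2 effect, and for IARS2 the decrease was larger after shFOXRED1 (-0.46 against -0.13; difference 0.32 ± 0.071, adjusted p = 0.000511). For KARS1, whose decrease was smaller after shFOXRED1, no difference was called (-0.11 ± 0.063, adjusted p = 0.153).

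Overexpression of TRIM15 raised part of the cytosolic enzymes by small amounts. Compared to EV, 7 of 18 cytosolic enzymes were higher and 2 lower, and none of the mitochondrial enzymes was higher and 2 were lower. At an unadjusted p below 0.05 the mitochondrial enzymes were 0 higher and 7 lower, and DESeq2 gave 0 higher. The scaffold proteins did not pass the test, and AIMP2 was lower at an unadjusted p below 0.05. Of all genes tested 12.5% were higher and 9.53% lower. Every one of the 7 higher enzymes, AARS1, CARS1, GARS1, IARS1, SARS1, WARS1 and YARS1, is among the 12 ATF4-type enzymes, of which none was lower, while the 6 other cytosolic enzymes had 2 lower and none higher. The median log2 fold change was 0.12 over the ATF4-type and -0.052 over the other cytosolic enzymes, -0.14 over the mitochondrial enzymes and -0.0065 over all genes tested. Whether these groups of enzymes differ was not tested.

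CARS1 had the largest log2 fold change, 0.31 ± 0.10 (adjusted p = 0.0434), with 10.7, 14.3 and 12.9 CPM after HA-TRIM15 and 10.5, 9.62 and 10.3 CPM in EV. Its first treated library was close to the controls, and the call was lost under 7 of the 12 alternatives. SARS1, the cytosolic seryl-tRNA synthetase, had 155, 149 and 139.6 CPM against 128, 121 and 123 CPM (0.26 ± 0.041, adjusted p = 0.000504), 1.19-fold higher. For WARS1 the libraries were 156, 154 and 154 CPM after HA-TRIM15 and 131, 132 and 134 CPM in EV. The groups were far apart for their spread, and WARS1 was 1.17-fold higher (log2 fold change 0.23 ± 0.032, adjusted p = 0.000189). YARS1, for tyrosine, had 126, 124 and 125 CPM against 111, 111 and 109 CPM (0.18 ± 0.034, adjusted p = 0.00185), and GARS1 263, 263 and 279 CPM against 243, 239 and 241 CPM (0.16 ± 0.033, adjusted p = 0.00409). AARS1 and IARS1 were 1.1-fold and 1.07-fold higher, and IARS1 lost its call under 6 of 12 alternatives. Without the third EV library 4 of the 7 calls of higher cytosolic enzymes were made. SARS1, WARS1, YARS1 and GARS1 were called under each of the 12. With the replicate block, LARS1 and TARS1 were called as well, which gave 9 higher enzymes.

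The lower cytosolic enzymes were FARSA and QARS1. FARSA had 71.2, 71.1 and 68.3 CPM after HA-TRIM15 and 82.3, 83.4 and 81.3 CPM in EV (-0.23 ± 0.038, adjusted p = 0.000694), and QARS1 118, 112 and 116 CPM against 129, 135 and 135 CPM (-0.20 ± 0.036, adjusted p = 0.00126). Both calls were kept under each of the 12 alternatives. Among the mitochondrial enzymes, CARS2 had 69.1, 73 and 66.8 CPM against 77.4, 76.7 and 79.6 CPM (-0.16 ± 0.042, adjusted p = 0.0119) and EARS2 60.4, 61.4 and 64.2 CPM against 68.3, 65.7 and 69 CPM (-0.13 ± 0.042, adjusted p = 0.0383). The mitochondrial count depended on single libraries: it was 1 without any 1 of the EV libraries and 4 without the first HA-TRIM15 library. Without the third EV library neither CARS2 nor EARS2 was called, so the 1 call left was that of another enzyme. EARS2 also lost its call without the second HA-TRIM15 library and by DESeq2's Wald test. The 9 cytosolic enzymes that did not pass lay between -0.095 and 0.11 and the 13 mitochondrial ones between -0.39 and 0.030.

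**Figure D5:**
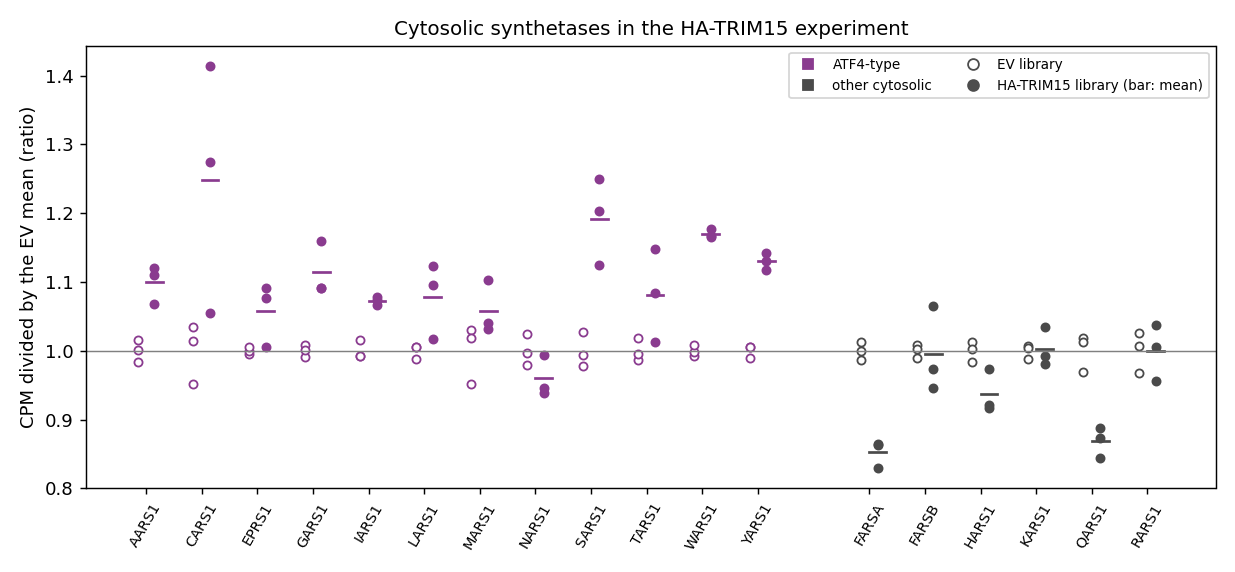
Level of each cytosolic enzyme in the HA-TRIM15 libraries (filled, bar at the mean) and the EV libraries (open), divided by the mean of EV; the 12 ATF4-type enzymes stand left and the 6 others right. The 7 enzymes called higher are all on the left, led by CARS1 and SARS1, and FARSA and QARS1 on the right lie below 0.9.

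The amino acid response outside the synthetases was higher in the same libraries, with 17 of 30 genes called higher and 1 lower (median 0.19). ATF3, a stress-induced transcription factor, had 142, 141 and 134 CPM after HA-TRIM15 and 39.9, 39.1 and 38.9 CPM in EV (1.82 ± 0.04, adjusted p = 2.07e-13), and the transcript of ATF4 315, 303 and 290.2 CPM against 256, 260.2 and 253 CPM (0.24 ± 0.035, adjusted p = 0.000197). ASNS was 1.38-fold higher and DDIT3, which encodes the stress factor CHOP, 1.54-fold higher. PPP1R15A, the inducible subunit of the eIF2 phosphatase, rose 2.02-fold, and none of the 4 eIF2 kinases was called. Of the 8 interferon-gamma-induced genes 4 were higher and none lower. IRF1 was 1.22-fold higher.

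The study places YY2 downstream of TRIM15 and reports that TRIM15 promotes the degradation of YY2 protein. On that account both HA-TRIM15 and shYY2 lower YY2 protein, which was not measured here. The HA-TRIM15 and shYY2 effects were therefore set side by side. Of the 7 enzymes higher after HA-TRIM15, 6 were lower after shYY2 (85.7% of the first list and 20% of the second), compared to 44.9% of all genes higher after HA-TRIM15, and CARS1 was higher in both. Of the 4 enzymes lower after HA-TRIM15, CARS2, EARS2 and FARSA were lower after shYY2 as well, where 48.9% of all genes lower after HA-TRIM15 were lower, and QARS1 was higher. Since 30 of all 35 members were lower after shYY2, high shares in both lists follow from the fall of the family. They cannot show a link between the 2 experiments. In the fit over both experiments the HA-TRIM15 effect was above the shYY2 effect for 16 of 18 cytosolic enzymes, 9 of 15 mitochondrial enzymes and both scaffold proteins, and below it for QARS1 alone, against 34.1% and 30.3% of all genes tested. The log2 difference was largest for FARSB (1.99 ± 0.066, adjusted p = 3.07e-16). It was smaller for WARS1 (1.49 ± 0.042, adjusted p = 3.06e-17) and negative for QARS1 (-0.56 ± 0.051, adjusted p = 3.85e-09). For CARS1 no difference was called (0.036 ± 0.15, adjusted p = 0.843). The experiments differ in plasmid type and in time, 48 h against 72 h, which cannot be told apart from the target.

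In the xenografts the family was split, with small changes in both directions. Compared to the ND group, 3 cytosolic enzymes rose and 3 fell with the HFD, 3 mitochondrial enzymes were higher and 2 lower, and AIMP1 was higher. The shares of all genes tested were 25.6% higher and 23.9% lower, larger than the members' 7 of 35 higher and 5 of 35 lower. The medians were -0.015 over the cytosolic and -0.062 over the mitochondrial enzymes, compared to -0.012 over all genes, and the largest change was below 1.5-fold.

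WARS2, the mitochondrial tryptophanyl-tRNA synthetase, had the largest change, with 15.2, 13.8 and 12.9 CPM in HFD and 9.71, 9.92 and 9.72 CPM in ND. All HFD libraries lay above all ND libraries, and the level was 1.42-fold higher (log2 fold change 0.50 ± 0.079, adjusted p = 6.31e-05). Next came FARSB with 63.9, 63 and 60.5 CPM against 51, 51.3 and 51.7 CPM (0.28 ± 0.04, adjusted p = 2.34e-05). LARS1, for cytosolic leucine, had 155, 156 and 156 CPM against 147, 136 and 142 CPM (0.14 ± 0.037, adjusted p = 0.00559), and IARS1 232, 241 and 229 CPM against 222, 209.9 and 213 CPM (0.12 ± 0.036, adjusted p = 0.0118). Both act on branched-chain amino acids and belong to the multi-synthetase complex, as does AIMP1 (0.16, adjusted p = 0.0109), which shares 11.6% of its exon bases with TBCK on the other strand. Of the 9 genes of the complex, these 3 were higher, QARS1 was lower and 5 were not called. RARS2 was higher with 43.4, 42.8 and 42.7 CPM against 39.2, 34.7 and 38.3 CPM (0.21 ± 0.051, adjusted p = 0.00289), and CARS2 with 53.8, 53.9 and 56 CPM against 48.8, 53.1 and 46.6 CPM (0.13 ± 0.049, adjusted p = 0.0325). In the other direction, AARS2, for mitochondrial alanine, had 28.3, 25.8 and 27.7 CPM in HFD and 30.5, 34.3 and 29.4 CPM in ND (-0.21 ± 0.062, adjusted p = 0.0099), and HARS2 45.6, 42.4 and 43.4 CPM against 49.9, 48.3 and 50.8 CPM (-0.18 ± 0.044, adjusted p = 0.00325). HARS2 shares 11.7% of its exon bases with HARS1. Of these genes, WARS2, FARSB and HARS2 were called under each of the 12 alternatives, and AARS2 lost its call without the second ND library, leaving 1 lower mitochondrial enzyme. LARS1, IARS1, AIMP1, RARS2 and CARS2 lost their calls by library totals alone, and IARS1 and AIMP1 also without the second HFD library. The call of CARS2 was the least stable of these, lost under 5 of the 12 alternatives. It was also lost without the first or the third HFD library and without the first or the third ND library.

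The 3 lower cytosolic enzymes were close to the limit of the test. GARS1 had 201, 203 and 204 CPM in HFD and 225, 208 and 224 CPM in ND (-0.11 ± 0.038, adjusted p = 0.0239), QARS1 136, 134 and 132 CPM against 143, 148 and 139.6 CPM (-0.096 ± 0.036, adjusted p = 0.0349), and AARS1 179.5, 173 and 171 CPM against 180.2, 189 and 191 CPM (-0.095 ± 0.036, adjusted p = 0.0396). Without any 1 of the 6 libraries at most 1 of the 3 calls was made, and none without an HFD library. With the replicate number as a block the adjusted p of AARS1 was 0.0576. WARS1 had 187, 167 and 172 CPM in HFD and 180.0, 174 and 182 CPM in ND (-0.024 ± 0.042, adjusted p = 0.658), with overlapping groups, while 6 of 8 interferon-gamma-induced genes were higher in HFD. The members that did not pass had log2 fold changes from -0.13 to 0.14.

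The scaling of the libraries bears on these counts. By library totals alone the median of all genes moved to -0.12 in this experiment, and 30.4% of the called genes were higher in place of 51.7%. Cytosolic enzymes were then 1 higher and 10 lower and mitochondrial ones 1 higher and 7 lower, so no direction is given for the family in the xenografts. For HA-TRIM15 the share of higher calls went from 56.8% to 40.6%, for shFOXRED1 from 46.1% to 57.3% and for shYY2 from 49.1% to 50.2%, and the 16 and 12 lower enzymes after shYY2 were again 16 and 12. Among the related lists, the 31 amino acid response genes tested had 11 higher and 7 lower in HFD, the 12 cytosolic delivery genes 6 higher and 2 lower, and the 18 mitochondrial translation factors 4 higher and 1 lower. Fibroblast markers, counted on human genes, summed to 22.8 to 26.0 CPM in HFD and 31.6 to 34.7 CPM in ND. Their part in the results was not tested, and reads of the mouse host were not analysed here.

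The effect of the diet was tested against that of HA-TRIM15, since TRIM15 counts were higher in the HFD libraries. Of the 7 members higher in HFD and the 7 higher after HA-TRIM15, IARS1 was common to both. It made up 14.3% of each list, compared to 24.1% and 52.3% over all genes. QARS1 was lower in both, 20% and 25% of the lists, compared to 13.3% and 33% over all genes. AARS1 and GARS1 were lower in HFD and higher after HA-TRIM15, 40% and 28.6% of the lists, compared to 8.72% and 16.5% over all genes. These shares rest on few and unstable calls. The HFD calls of AARS1, GARS1 and QARS1 were lost under 8, 7 and 7 of the 12 alternatives. The HFD effect was above the HA-TRIM15 effect for 4 cytosolic and 2 mitochondrial enzymes and both scaffold proteins, and below it for 5 cytosolic enzymes and no mitochondrial one, against 21.5% and 13.6% of all genes tested. The 5 were AARS1, GARS1, SARS1, WARS1 and YARS1, all of them ATF4-type enzymes called higher after HA-TRIM15. Their differences ran from -0.30 for SARS1 to -0.20 for AARS1, and that of WARS1 was in between (-0.22 ± 0.053, adjusted p = 0.0029). WARS2 differed most in the other direction (0.69 ± 0.11, adjusted p = 3.04e-05). Without the first HFD library 5 members, not 8, were above. Tumors and cultures differ in material and time, which cannot be told apart from the cause of the higher TRIM15 counts.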

How the data were processed

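The authors deposited 4 tables of raw read counts per Ensembl gene, 1 per experiment, each with 61860 identifiers and 6 libraries, in 8 groups of 3. The submitters' processing notes name the builds hg 38 and mm 10, but the aligner, the counter, its strand setting and the handling of mouse reads are not given in the sources used here. Gene names were taken from a reference table for 99.8% of identifiers. Exon lengths and overlaps came from GENCODE 29 and promoter sequence from RefSeq GRCh38.p14.

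Counts were analysed in R 4.3.3. Genes were kept by filterByExpr (minimum count 10, minimum total 15), libraries were scaled by TMM, and each experiment was fitted alone with edgeR 4.0.16 (quasi-likelihood test, Benjamini-Hochberg adjustment, threshold 0.05). Differences between effects were tested in 1 fit over 2 experiments. The fit was tested on simulated counts. Alternatives were DESeq2 1.42.0 size factors or its Wald test, library totals alone, no filter or 10 counts in every library, a fold change of at least 1.5, the replicate number as a block, and each library left out. A sole exact permutation test of 3 against 3 could not go below 0.1 and was not used. Within the groups, replicate pairs differed by 1.46 to 8 chi-square units per gene, more than sampling noise.

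Same-numbered libraries had correlated deviations in the shFOXRED1 experiment among the more abundant genes (0.305, 0.206 and 0.52, all above 0.1) and were taken there as paired, although over all genes no correlation passed 0.1. Elsewhere at least 1 pair did not pass.

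Members, lists and tests were chosen with earlier results of these data known. Library values are given for the members called with non-overlapping groups and the largest changes, up to 5 cytosolic and 3 mitochondrial enzymes per direction, and for WARS1, which the study lists with TRIM15. Values of AIMP1, AIMP2, of IARS2 after shYY2 and of the other pathway genes were chosen after they were seen.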

Additional observations from a re-analysis of the deposited data

How the results depend on the processing

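The counts of lower enzymes after shYY2 were 16 and 12 in each setting except a required fold change of at least 1.5, which left 13 cytosolic and 5 mitochondrial ones. That requirement gave 0 called enzymes in every class and direction of the HFD, HA-TRIM15 and shFOXRED1 experiments, and 0 higher cytosolic enzymes after shYY2, so the calls there are of small changes. By library totals alone the HFD experiment had 1 higher and 10 lower cytosolic and 1 higher and 7 lower mitochondrial enzymes. The lower mitochondrial enzymes became 5 after HA-TRIM15 and 2 after shFOXRED1 in that setting, and the HFD effect was above that of HA-TRIM15 for 3 members and below it for 9. With no filter on counts, and with DESeq2's Wald test, 0 cytosolic enzymes were lower in HFD. The Wald test gave 1 lower mitochondrial enzyme after HA-TRIM15 and 1 higher cytosolic enzyme after shYY2. With 1 library left out, the counts ranged from 0 to 1 (lower cytosolic) and 1 to 3 (lower mitochondrial) in HFD, 4 to 10 (higher cytosolic) and 1 to 4 (lower mitochondrial) after HA-TRIM15, 1 to 2 (higher cytosolic) after shYY2, 2 to 4 (lower mitochondrial) after shFOXRED1, and 5 to 10 for members with a larger HFD than HA-TRIM15 effect. The log2 fold change of WARS1, which was not called in either experiment, turned to 0.0096 in HFD without the second HFD library (range -0.068 to 0.0096 with 1 library left out) and to 0.025 after shFOXRED1 by library totals alone. The cause of these shifts was not tested. With the replicate block, the call of AARS1 in HFD was lost (adjusted p = 0.0576), LARS1 and TARS1 after HA-TRIM15 and AIMP1 after shFOXRED1 were gained, and the block changed no other call of the 35 members in the 4 experiments. The totals of 14299807 counts and above gave all members values above the filter, but the lowest counts were 13 for SARS2, 87 for MARS2, 98 for PARS2, 116 for FARS2, 146 for AIMP2, 158 for LARS2, 182 for YARS2 and 184 for CARS1.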
